A study of Caenorhabditis elegans with 2 samples.

Results

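The genes described here make and regulate the contractile apparatus of the Caenorhabditis elegans pharynx, the muscular feeding pump of the worm. They are the homeobox gene ceh-22, the myosin heavy chain genes myo-1, myo-2 and myo-5, and the troponin genes tnt-4, tnc-2 and tni-4. The 7 genes were taken as a named list, with earlier results of these data known, out of 19973 protein-coding genes annotated on the nuclear chromosomes. Regions listed for the T-box protein TBX-2 were counted for a gene by their summit, the position of strongest recovery within the region. The summit had to lie inside the gene or within 5000 bp of any of its annotated transcript starts. This is called in reach below.

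The study measured TBX-2 occupancy by chromatin immunoprecipitation and sequencing (ChIP-seq) with an antibody against GFP. The material was whole hermaphrodite L1 larvae of strain OP159, genotype unc-119(ed3) III; wgIs159. They were collected 6 h after synchronization, which was done by bleaching and starving L1 larvae. All animals carried a stably expressed TBX-2 transgene with a GFP-FLAG tag at its C terminus, and both samples, biological replicates 1 and 2, came from this 1 line. What drives the transgene is not stated in the labels. There was 1 group and no second genotype, stage or treatment, so nothing below compares conditions, and no test was made.

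T-box proteins bind DNA through a conserved domain, and TBX-2 is known for its role in forming pharyngeal muscle of the anterior pharynx. CEH-22, an NK-2 class homeodomain protein, is known to bind an enhancer of myo-2 and to activate pharyngeal muscle genes. Myosin heavy chains form the thick filaments of the sarcomere. The troponin complex, made of the subunits T, C and I, sets the calcium response of the thin filaments. The assay used whole larvae, in which pharyngeal muscle is 1 tissue among many. A region at a muscle gene can therefore not be placed in muscle cells, and binding in fewer cells cannot be told apart from less binding per cell.

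The authors deposited lists of regions, each with a score for its strength, on a scale that is not stated. A list of 30000 regions exists for each replicate and for both pooled, and rank 1 is the strongest region of a list. The pooled list was deposited as holding both peaks and background, so its weaker regions can be background. Scores ran from 7.13 to 679 in replicate 1, from 7.55 to 1215 in replicate 2 and from 12.1 to 1894 in the pooled list, so levels are compared by rank within a list, and a ratio between the replicates is read only beside the same ratio over all summits. A shorter list of 4384 regions had passed a threshold on the irreproducible discovery rate (IDR), a measure of how well regions rank alike in replicates. The weakest score in it was 76.8 and the median 145, and the regions described below had the same score and rank in it as in the pooled list. Listed regions did not all have like scores in the replicates. Over the 4260 IDR summits found in both, the ratio of replicate 2 to replicate 1 scores ran from 0.234 to 9.91. A place in the IDR list therefore does not show that a region was alike in both replicates. No read counts were used here, and the depth behind each value is unknown.

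The sequences around the regions that the results turn on are shown first, for comparison with the word counts further on. Each is 299 bases, centred on the summit, read 5′ to 3′ along the strand of the gene, from the RefSeq genome of assembly WBcel235, whose coordinates are those of ce11. For ceh-22, myo-2 and myo-5 the summit is the one in the IDR list, and for tni-4, tnc-2 and tnt-4 it is the strongest pooled region of the promoter. The windows of myo-1, of the IDR summit in reach of tni-4 and of the myo-5 promoter region are not shown. That of myo-1 held none of the words counted further on. Capitals mark matches on either strand to TNAAGTG, a word bound by NK-2 class homeodomain proteins such as CEH-22, and to TGTTTNC, a word of forkhead proteins such as the pharyngeal regulator PHA-4.
ceh-22, chrV:10672641-10672939, plus strand: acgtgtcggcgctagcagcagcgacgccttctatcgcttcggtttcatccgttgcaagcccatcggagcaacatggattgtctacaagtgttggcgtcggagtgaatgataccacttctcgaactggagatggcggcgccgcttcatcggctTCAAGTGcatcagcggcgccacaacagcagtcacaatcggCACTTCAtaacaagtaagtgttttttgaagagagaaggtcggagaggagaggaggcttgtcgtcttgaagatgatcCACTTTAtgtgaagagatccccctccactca
myo-2, chrX:12467682-12467980, plus strand: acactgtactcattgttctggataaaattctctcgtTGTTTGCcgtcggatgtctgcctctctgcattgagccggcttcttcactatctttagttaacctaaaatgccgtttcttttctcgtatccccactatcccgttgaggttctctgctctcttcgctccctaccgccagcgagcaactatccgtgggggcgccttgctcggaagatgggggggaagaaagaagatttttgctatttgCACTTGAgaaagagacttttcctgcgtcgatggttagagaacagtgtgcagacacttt
myo-5, chrV:8110839-8111137, plus strand: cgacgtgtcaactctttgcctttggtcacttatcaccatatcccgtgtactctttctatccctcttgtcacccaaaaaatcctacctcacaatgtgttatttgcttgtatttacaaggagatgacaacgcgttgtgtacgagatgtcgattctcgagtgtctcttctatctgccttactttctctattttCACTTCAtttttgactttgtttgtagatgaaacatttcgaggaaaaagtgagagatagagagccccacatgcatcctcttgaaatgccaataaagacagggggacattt
tni-4, chrIV:5204177-5204475, plus strand: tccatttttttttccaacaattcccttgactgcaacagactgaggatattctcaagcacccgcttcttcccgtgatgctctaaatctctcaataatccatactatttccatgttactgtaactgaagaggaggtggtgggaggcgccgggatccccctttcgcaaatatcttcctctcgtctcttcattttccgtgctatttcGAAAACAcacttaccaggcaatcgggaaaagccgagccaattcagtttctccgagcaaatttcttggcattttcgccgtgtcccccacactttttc
tnc-2, chrII:10466579-10466877, plus strand: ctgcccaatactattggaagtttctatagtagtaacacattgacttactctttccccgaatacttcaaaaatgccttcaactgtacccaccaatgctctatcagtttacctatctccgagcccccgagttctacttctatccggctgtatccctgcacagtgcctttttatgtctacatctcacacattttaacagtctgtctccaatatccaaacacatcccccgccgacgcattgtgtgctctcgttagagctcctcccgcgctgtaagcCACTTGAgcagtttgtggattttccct
tnt-4, chrV:1992980-1993278, minus strand: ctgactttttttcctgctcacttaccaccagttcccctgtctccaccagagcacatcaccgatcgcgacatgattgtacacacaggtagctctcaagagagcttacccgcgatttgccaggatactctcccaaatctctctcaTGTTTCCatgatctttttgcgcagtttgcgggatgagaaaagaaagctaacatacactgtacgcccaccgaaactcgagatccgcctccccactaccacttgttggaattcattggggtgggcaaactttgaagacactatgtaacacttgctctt

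IDR summits lay in reach of 5 of the 7 genes, namely ceh-22, myo-1, myo-2, myo-5 and tni-4, with 1 summit each. Over all protein-coding genes, 36.1% had an IDR summit in reach. A promoter here spans the 1000 bp before and the 200 bp after any start of a coding transcript. Of the 7 genes, 3 had an IDR summit in a promoter, namely ceh-22, myo-1 and myo-2. The share over all genes was 15.6%. With 7 genes and such shares, the counts describe these genes and were not tested. For tnt-4 and tnc-2, no IDR summit was in reach, and the nearest lay 15669 bp and 16351 bp upstream of their starts, beside F59A7.7 and lin-56.

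**Figure D1:**
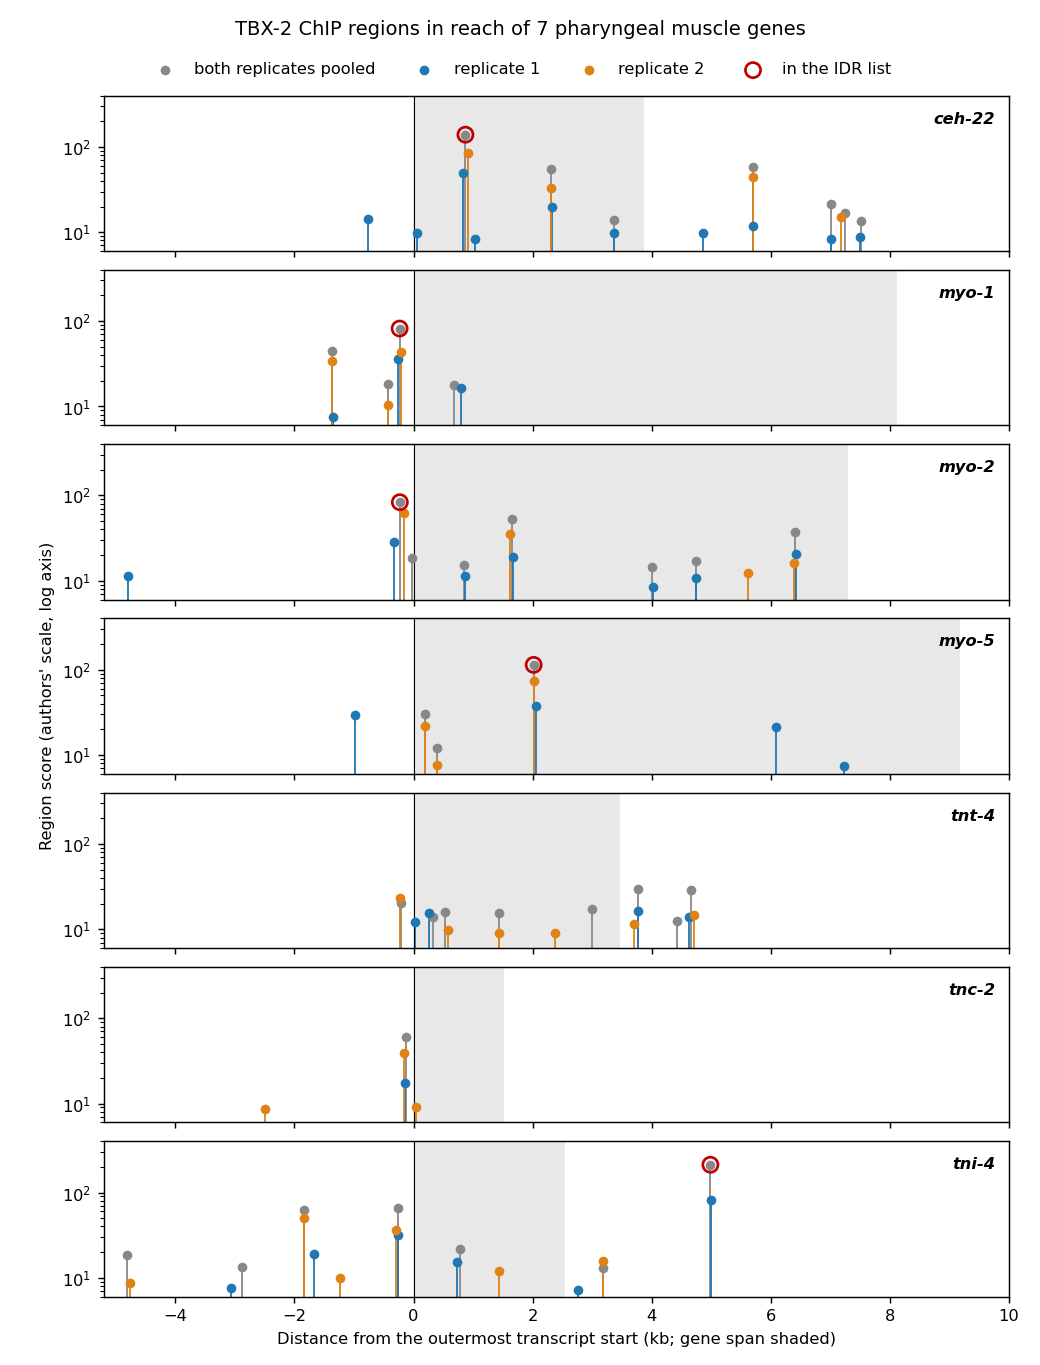
Score of every region in reach of each gene (vertical log axis) against the distance of its summit from the outermost transcript start (horizontal axis, kb, upstream to the left), with the gene span shaded. Grey, blue and orange points are regions of the pooled list, replicate 1 and replicate 2, and red circles mark the 5 regions that are also in the IDR list. The tni-4 circle is the summit at nbet-1, whose replicate 2 partner lies just outside the reach.

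ceh-22 (WBGene00000445, chromosome V, 10671918 to 10675769, plus strand) had the highest promoter score of the group. Its IDR summit at 10672790 had a score of 139 and ranked 2298 of 4384. The score was 49.7 in replicate 1, where it ranked 2567, and 85.1 in replicate 2, where it ranked 2356. The 2 replicates thus placed it at similar ranks, and their summits lay 47 bp and 37 bp from the listed one. The summit fell in a coding exon, 872 bp downstream of the outermost transcript start and 156 bp downstream of the next annotated start. The summit also lay in an exon of F29F11.19, a non-coding RNA gene. Because its place in a promoter rests on that second start, a narrower window, from 500 bp before to 100 bp after a start, left the ceh-22 summit out.

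Further regions of the pooled list stood at ceh-22 below the IDR threshold. The strongest, 3111 bp downstream of the nearest start and beyond the 3′ end of the gene, had a pooled score of 57.7 and ranked 5788. It ranked 4766 in replicate 2, with a score of 45.0, but 14595 in replicate 1, with a score of 11.9. The next stood in an intron, 13 bp upstream of the start at 10674232, with a pooled score of 54.4 and rank 6160. It ranked 7282 in replicate 1 and 6543 in replicate 2. The intronic region was thus ranked alike in both replicates, whereas the downstream one was far stronger in replicate 2.

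The myosin genes myo-1 and myo-2, whose products are the pharyngeal myosin heavy chains, carried summits at almost the same distance from their starts. For myo-2 (WBGene00003514, chromosome X, 12468061 to 12475348, plus strand) the IDR summit lay 230 bp upstream. Its score was 83.3 (rank 4036). For myo-1 (WBGene00002348, chromosome I, 7258946 to 7267057, minus strand) it lay 234 bp upstream, with a score of 82.0 (rank 4116). Both stood close to the weak end of the IDR list, with 7.96% of its regions at or below the myo-2 score and 6.14% at or below that of myo-1.

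The replicates ordered these 2 genes differently. In replicate 1 the myo-1 region scored 36.5 (rank 3687) and the myo-2 region 28.5 (rank 4812). In replicate 2 the myo-1 region scored 44.0 (rank 4878) and the myo-2 region 62.0 (rank 3415). Each gene was therefore among the 4384 strongest regions in 1 replicate and outside them in the other. At myo-2 the replicate summits also lay apart, 329 bp upstream of the start in replicate 1 and 156 bp upstream in replicate 2, whereas at myo-1 they lay 262 bp and 215 bp upstream. The myo-2 summit was in the promoter of cdf-2, a zinc transporter gene, as well, and overlapped the non-coding RNA genes T18D3.13 and T18D3.14. The myo-1 summit was intergenic and in the promoter of no other protein-coding gene.

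Both genes had weaker pooled regions nearby. In an intron of myo-2, 1655 bp downstream of its start, a pooled region scored 52.9 (rank 6309) and ranked 7669 in replicate 1 and 6076 in replicate 2. Farther on, at 6409 bp, a pooled region of score 37.5 (rank 8661) ranked 6833 in replicate 1 and 13163 in replicate 2. Upstream of myo-1, at 1374 bp, a region scored 45.1 in the pooled list (rank 7351), with rank 27619 in replicate 1 and 6318 in replicate 2. The myo-1 region was thus strong by rank in replicate 2 alone, and the first myo-2 region ranked alike in both.

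The third myosin gene, myo-5 (WBGene00019064, chromosome V, 8108970 to 8118131, plus strand), carried its summit inside the gene. The IDR summit at 8110988 lay in an intron, 2018 bp downstream of the start, with a score of 114 and rank 2894. It scored 37.9 in replicate 1 (rank 3500) and 73.3 in replicate 2 (rank 2824), with summits 39 bp and 1 bp from the listed one. This was the second strongest IDR summit whose nearest transcript start belonged to one of the 7 genes, after that of ceh-22. No other protein-coding gene had it in reach. In the myo-5 promoter the replicates differed. Replicate 1 held a region 979 bp upstream of the start that scored 29.3 (rank 4666) and overlapped the non-coding RNA gene F58G4.8, and neither replicate 2 nor the pooled list had a region there. Replicate 2 held one 198 bp downstream, in an intron, that scored 22.03 (rank 9509), and the pooled list gave it a score of 30.3 (rank 10613).

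The troponin genes stood below the IDR threshold at their own promoters. For tni-4, which encodes a troponin I (WBGene00006586, chromosome IV, 5204591 to 5207124, plus strand), the IDR summit in reach lay 4987 bp downstream of the start, 77 bp downstream of a start of nbet-1. It was in the promoters of nbet-1 and Y59E9AL.36 and scored 212 (rank 1322). The replicates gave it scores of 80.9 and 129 (ranks 1339 and 1355). That summit was the strongest of the 5, and it lay close to the limit of 5000 bp. Counting each summit only for the gene with the nearest start left 4 of the 7 genes with a summit.

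At the tni-4 promoter itself, a pooled region 265 bp upstream of the start scored 66.3 and ranked 5066, below the 4384 of the IDR list. Its −log10 q-value, the caller's estimate of false discovery, was 4.01, which was the highest in the pooled list, shared by the 5151 strongest regions. It scored 31.5 in replicate 1 (rank 4332) and 36.8 in replicate 2 (rank 5813). Replicate 1 therefore held it among its 4384 strongest regions and replicate 2 did not. A second pooled region, 1845 bp upstream, scored 62.3 (rank 5384). It ranked 4265 in replicate 2, and replicate 1 held no summit within 100 bp, while its strongest region within 200 bp ranked 7687.

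tnc-2, a troponin C gene (WBGene00006583, chromosome II, 10466852 to 10468358, plus strand), had 1 pooled region in reach. It lay 124 bp upstream of the start, with a score of 60.2 and rank 5555. Replicate 1 ranked it at 8437 with a score of 17.6, and replicate 2 at 5506 with a score of 39.1. The ratio of replicate 2 to replicate 1 scores was 2.23. The median of that ratio was 1.61 over the 4260 IDR summits found in both replicates, a list that does not hold the tnc-2 region. For pooled regions below the IDR list down to rank 10000, found in both replicates, the median was 1.52. Their quartiles were 1.07 and 2.16, so the tnc-2 region lay just above the upper one.

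tnt-4, which encodes a troponin T (WBGene00006589, chromosome V, 1989471 to 1992918, minus strand), had the weakest promoter region of the 7 in the pooled list and in replicate 1, but not in replicate 2, where that of myo-5 ranked lower. In the pooled list it lay 211 bp upstream, with a score of 20.4 and rank 16542. Replicate 2 placed a region 232 bp upstream at rank 9073 with a score of 23.2. In replicate 1 the strongest promoter region lay 18 bp downstream of a start and ranked 14171 with a score of 12.1. The gene had 8 pooled regions in reach, and the strongest of them lay 3772 bp downstream of the nearest start, past the end of the gene (score 29.9, rank 10751).

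**Figure D2:**
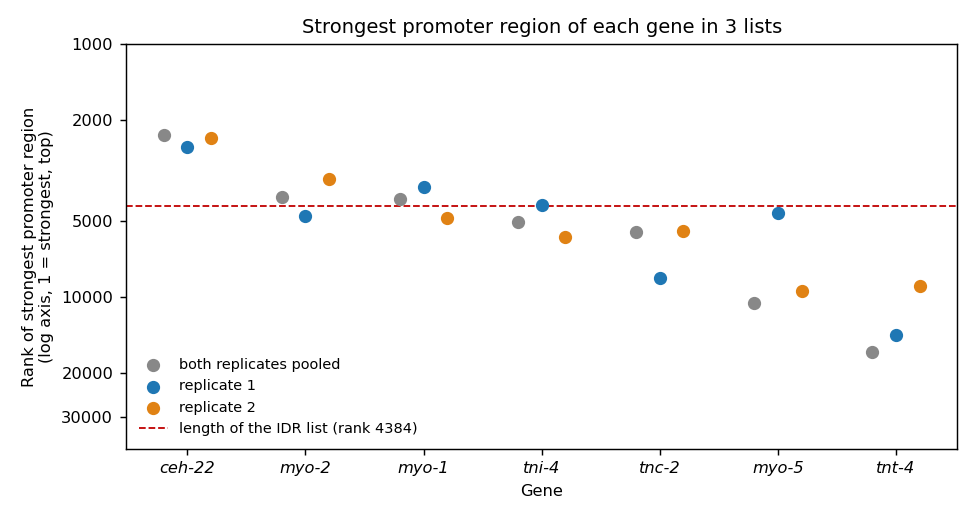
Rank of the strongest promoter region of each gene in the pooled list, replicate 1 and replicate 2 (vertical log axis, rank 1 at the top), with genes ordered by pooled rank. The dashed line marks rank 4384, the length of the IDR list, and ceh-22 alone lies above it in all 3 lists. This place of ceh-22 is lost in the narrower promoter window, from 500 bp before to 100 bp after a start.

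Set in order of pooled promoter rank, the genes ran ceh-22 (2298), myo-2 (4036), myo-1 (4116), tni-4 (5066), tnc-2 (5555), myo-5 (10613) and tnt-4 (16542). ceh-22 was ahead of the other 6 in both replicates. Behind it the order differed between replicates. The neighbours myo-2 and myo-1 changed places, myo-5 (rank 4666) was ahead of myo-2 (4812) and tnc-2 (8437) in replicate 1, and tnt-4 (9073) was ahead of myo-5 (9509) in replicate 2. For myo-5 and tnt-4 these ranks belong to different regions. That of myo-5 lay 979 bp upstream in replicate 1, and 198 bp downstream in replicate 2 and the pooled list. Both places are close to the limits of the promoter. That of tnt-4 lay 18 bp downstream in replicate 1 and 232 bp upstream in replicate 2. The order of the 6 genes behind ceh-22 is therefore not resolved by 2 replicates. In replicate 1 the promoters of ceh-22, myo-1 and tni-4 held one of the 4384 strongest regions, where 15.5% of all genes did. In replicate 2 those of ceh-22 and myo-2 did, where the share over all genes was 15.6%. Only ceh-22 met this limit in both. That place rests on its second start, with the region 156, 109 and 193 bp downstream in the pooled list, replicate 1 and replicate 2. In the narrower window, from 500 bp before to 100 bp after a start, this region is left out. The strongest pooled promoter region of ceh-22 then ranks 6160, behind those of myo-2, myo-1, tni-4 and tnc-2.

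All 7 promoters held a region of some rank in the pooled list of 30000, which was so for 39.3% of protein-coding genes. The share of all genes with a promoter region at least as strong was 9.86% for ceh-22, 14.7% for myo-2, 14.9% for myo-1, 17.0% for tni-4, 17.98% for tnc-2, 25.7% for myo-5 and 31.0% for tnt-4. Many other genes thus had promoter regions as strong as those of the 7, with 1970 genes at or above ceh-22. These shares are for the promoter of 1000 bp before to 200 bp after a start, and that of ceh-22 rests on its second start. Among the 5699 strongest pooled regions, which is 1.3 times the length of the IDR list, 5 of the 7 promoters held one, with tni-4 and tnc-2 joining ceh-22, myo-1 and myo-2. The share over all genes was 18.2%. The IDR list that the authors made on the older assembly ce10 is longer, with 5737 regions, and its regions were not placed at genes here.

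**Figure D3:**
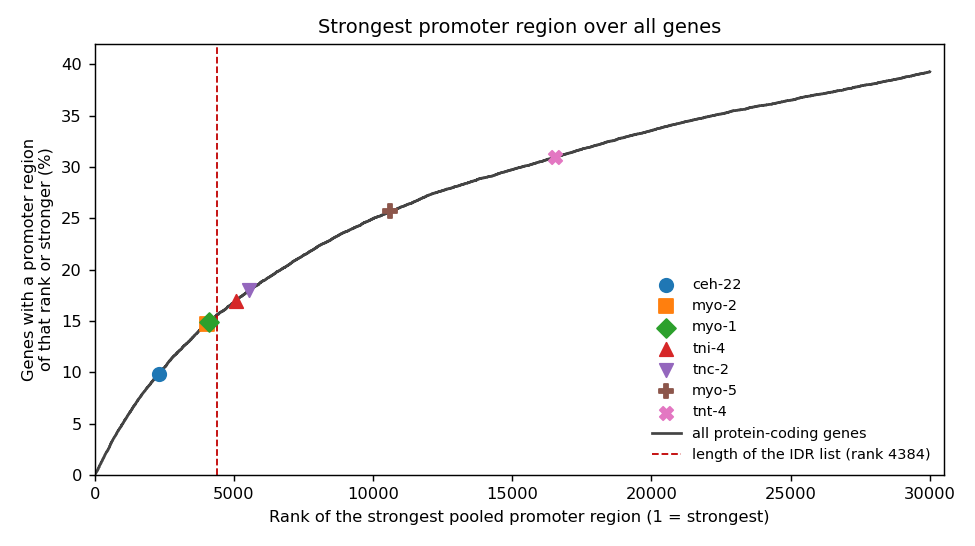
Share of the 19973 protein-coding genes (vertical axis, %) whose strongest pooled promoter region has a given rank or better (horizontal axis), with the 7 genes marked on the curve and the length of the IDR list as a dashed line. ceh-22 lies at 9.86% and tnt-4 at 31.0%, and tni-4 and tnc-2 lie just past the line.

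Pooled regions of any strength, background included, were also counted around the 7 genes. They had a median of 7 pooled regions in reach (lowest 1, at tnc-2, and highest 8, at tnt-4), where the median over all genes was 2. The medians were 4 in replicate 1 and 4 in replicate 2, each against 2 over all genes. The spans of the 7 genes ran from 1507 bp at tnc-2 to 9162 bp at myo-5, and longer genes offer more room for summits. So do more starts, of which ceh-22 has 5. At tnt-4, the gene with most, the 8 pooled regions had −log10 q-values from 0.15 to 1.26. The part of gene length, of starts and of background in these counts was not tested.

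For myo-1, myo-2, tni-4, tnc-2 and tnt-4 the strongest pooled promoter region lay between 124 bp and 265 bp upstream of the start. The replicates placed some of these elsewhere, with that of myo-2 329 bp upstream and that of tnt-4 18 bp downstream in replicate 1, and that of tni-4 303 bp upstream in replicate 2. These positions are a description of the 5 genes and were not set against those of all genes. In ceh-22 and myo-5 the strongest region of the locus lay inside the gene, in a coding exon and in an intron. The gap to the next protein-coding gene upstream was 1027 bp at ceh-22, 1143 bp at myo-2, 1553 bp at tnc-2, 1947 bp at myo-5, 2061 bp at myo-1, 3186 bp at tnt-4 and 8959 bp at tni-4.

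The replicates were compared at the 5 IDR summits in reach. The ratio of replicate 2 to replicate 1 scores was 1.71 at ceh-22, 1.21 at myo-1, 2.17 at myo-2, 1.93 at myo-5 and 1.60 at the nbet-1 summit near tni-4. Their median of 1.71 lay within the quartiles of all IDR summits, 1.36 to 1.94, and only myo-1 and myo-2 fell outside them. Of the 5, 3 were among the 4384 strongest regions of both replicates, namely those of ceh-22 and myo-5 and the one at nbet-1. Both replicates went into the making of the IDR list, so this count is a description. Below the IDR list the ratios spread more. For pooled regions down to rank 10000 that were found in both replicates, the median ratio was 1.52 and 9.75% had a ratio of 3 or more. The regions downstream of ceh-22 (3.78) and upstream of myo-1 (4.45) were among those.

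**Figure D4:**
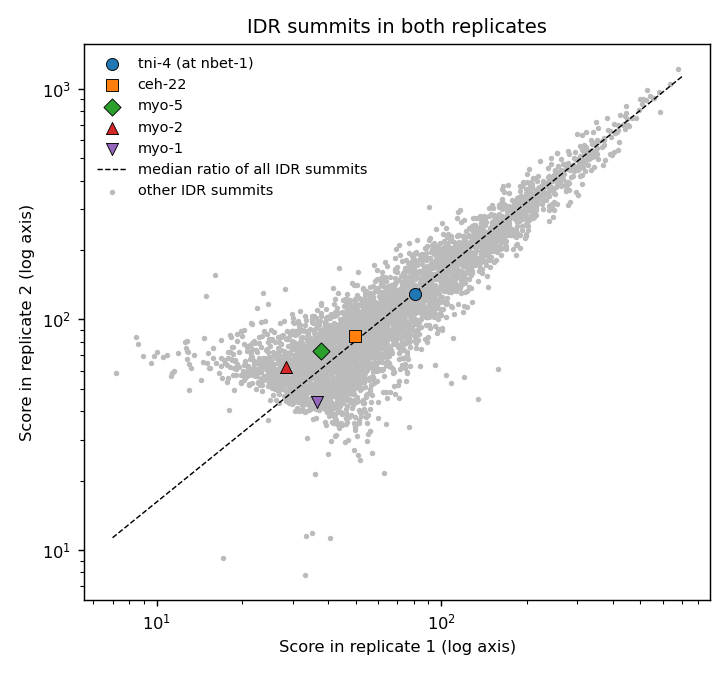
Score in replicate 2 (vertical log axis) against score in replicate 1 (horizontal log axis) for the IDR summits found in both replicates, with the 5 summits in reach of the genes as large symbols and the others in grey. The dashed line is the median ratio of 1.61, and myo-1 lies below it and myo-2 above it.

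GGTGTGA, a core word bound by T-box proteins, was absent from the windows. None of the 5 IDR summits in reach had it within 150 bp, on either strand, where 2.37% of all 4384 IDR summits did. None of the 4 further windows around the strongest promoter regions of myo-5, tni-4, tnc-2 and tnt-4 had it either. The looser word GGTGNNA was in the window of 1 of the 5, that of myo-5, and in 33.3% of all IDR windows. It was also near the promoter regions of tnt-4 and tni-4, at tni-4 as GGTGGGA centred 12 bp upstream of the summit.

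The NK-2 type word TNAAGTG was in 3 of the 5 windows, where 12.7% of all IDR windows had it and 14.3% of windows of the same length that end at the start of a protein-coding gene. The window of ceh-22 held it 3 times, as TCAAGTG 6 bp downstream of the summit, and on the other strand as TGAAGTG and TAAAGTG 46 bp and 122 bp downstream. In the myo-2 window it stood as TCAAGTG on the other strand, 135 bp upstream of the start. The myo-5 window held TGAAGTG on the other strand, 44 bp downstream of the summit. At tnc-2, below the IDR threshold, TCAAGTG lay on the other strand across the transcript start. The windows of myo-1, of nbet-1 near tni-4 and of the promoter regions of tni-4, myo-5 and tnt-4 had none. The words are not independent of each other, since TCAAGTG contains CAAGTG, a match to the E-box CANNTG.

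The loosened forkhead type word TGTTTNC, with any base at N, was in 2 of the 5 windows and in 32.2% of all IDR windows. It stood as TGTTTGC 340 bp upstream of the myo-2 start and as TGTTTTC in the nbet-1 window. It was also near the promoter regions of myo-5, tni-4 and tnt-4, at tnt-4 as TGTTTCC centred 3 bp upstream of the summit. E-boxes, words of basic helix-loop-helix proteins, were in 4 of the 5 windows, all but that of myo-1, and in 71.8% of all IDR windows. These matches describe the letters of the windows, and none of them was tested as a site.

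A list of 25 contractile relatives was set beside the 7 genes. It held myosin, troponin, actin, tropomyosin and giant muscle protein genes among others, mostly of body wall muscle, and was written with earlier results of these data known. An IDR summit was in reach of 18 of the 25 (72.0%) and in a promoter of 14 (56.0%), against 36.1% and 15.6% over all genes. Neighbouring genes of the list shared summits, as act-2 and act-3 did and mlc-1 and mlc-2 did, so the genes counted are not separate summits. By score the first were the calponin gene cpn-3 (477), the actin gene act-4 (271), the myosin light chain gene mlc-2 (257), the cofilin gene unc-60 (208), the actin gene act-1 (196), the tropomyosin gene lev-11 (172) and the actin genes act-2 and act-3 (171 each, the same summit). In replicate 1 these summits ranked from 316 at cpn-3 to 2211 at lev-11, and in replicate 2 from 347 to 1643 at act-2 and act-3. Several belong to neighbours as well, since the strongest summit had its nearest start in the gene itself for 10 of the 18. The summits of act-4, mlc-2 and unc-60 were nearest to M03F4.4, C36E6.2 and gid-8.

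Relatives of the 7 by protein family were then compared, and these genes were chosen after their values were seen. Of the body wall myosin heavy chain genes, unc-54 had an IDR summit 1602 bp upstream of its start (score 79.2, rank 4255), and its strongest promoter region had pooled rank 5842. For myo-3 no IDR summit was in reach, and its promoter region ranked 5131. Of the pharyngeal genes, the myo-2 and myo-1 promoters (ranks 4036 and 4116) stood ahead of both in the pooled list, and the myo-5 promoter (rank 10613) stood behind both. Among troponin T genes, mup-2 (141, rank 2256, 278 bp upstream) and tnt-2 (86.9, rank 3867, 490 bp upstream) had a promoter summit in the IDR list, while tnt-4 and tnt-3 had none. For troponin I, the tni-4 promoter (pooled rank 5066) stood ahead of that of unc-27 (6198), and tni-1 and tni-3 had no pooled promoter region. An IDR summit of tni-1 lay outside its promoter, 2014 bp upstream (90.8, rank 3707). For troponin C, the body wall gene pat-10 had pooled promoter rank 5225, and tnc-2 had rank 5555. By pooled promoter rank the pharyngeal gene was thus ahead of its listed relatives for troponin I, and behind at least 1 of them for troponin T and troponin C. No test of these differences was made.

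Other genes known for work in pharyngeal muscle formed a second list of 13, of channels, receptors and signalling proteins, also written with earlier results known. An IDR summit was in reach of 6 (46.2%) and in a promoter of 3 (23.1%), against 36.1% and 15.6% over all genes. The regulator of G protein signalling gene eat-16 had the strongest (644, 438 bp upstream of its start), with rank 192 in replicate 1 and 143 in replicate 2. The innexin gene eat-5 and the G protein beta subunit gene gpb-2 shared a summit (320) whose nearest start was that of F13G3.10. Next came the calcium channel gene egl-19 (310, nearest to C48A7.16) and the glutamate-gated chloride channel gene avr-15 (188, nearest to gut-2). The sodium pump gene eat-6 had its own summit 711 bp upstream (137). For 2 of the 6 genes, eat-16 and eat-6, the strongest summit was nearest to a start of the gene itself.

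Genes most like the members in rank were sought among 3061 genes with a promoter IDR summit found in both replicates, by the distance between the log2 ranks in the 2 replicates. For ceh-22 they were sta-2, a STAT gene (ranks 2603 in replicate 1 and 2331 in replicate 2), chaf-1 (2614 and 2389) and rgef-1 (2493 and 2372). For myo-1 they were C29F7.2 (3749 and 4827), ape-1 (3771 and 4870) and C26H9A.4 (3590 and 4794). For myo-2 the first was cdf-2, which has the same summit, followed by T22F3.2 (4897 and 3381) and C01B10.3 (4712 and 3413). The likeness is over 2 samples only and says how strong the regions were.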

How the data were processed

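TBX-2 ChIP-seq in 2 replicates of 1 group was analysed from the deposited ce11 region lists. Per the notes deposited with the samples, the lists were derived from aligned reads of the replicates together with a control. The sources used here do not name the aligner, caller, IDR threshold or control strain. The deposited score of a region has no stated scale, and the deposited −log10 q-value is capped, at 3.75 in replicate 1, 4.09 in replicate 2 and 4.01 in the pooled list. Gene models were from Ensembl release 115 (WBcel235), and chromosome lengths of the RefSeq genome exceeded every region end. Summits were matched between lists by the nearest within 100 bp. Sequence words were counted within 150 bp of a summit. Scripts ran in Python 3.11.15 with pandas 2.3.3 and numpy 2.4.6, and were tested on simulated data. The named genes are the 7 members, the genes nearest to their IDR summits, up to 8 genes per list with an IDR summit in reach, and the 3 genes most alike in rank. The relatives compared by protein family fall outside this rule and were chosen after their values were seen. Members, lists and words were chosen with earlier results of these data known. Alternatives changed the reach, the promoter window, the list length, the matching distance and the replicate. The ce10 input lists were not used.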

Additional observations from a re-analysis of the deposited data

How the results depend on the processing

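Moving the reach to 2000 bp or 10000 bp left 4 or 5 of the 7 genes with an IDR summit in reach, and 4 with the nearest start. Inside the gene span alone, 2 genes (ceh-22 and myo-5) had 1 summit each, 2 in all. The 2192 strongest IDR peaks left 1 gene and 1 summit in reach, the one at nbet-1, and 0 promoters, because the other 4 summits rank lower. The 5699 strongest pooled regions gave 6 genes and 8 regions in reach. The strongest regions of 1 replicate gave 4 genes in reach from either replicate, 4 to 5 regions and 2 to 3 promoters. Without replicate 1, myo-1 left the promoter count, and without replicate 2, myo-2 left it and tni-4 entered. A promoter of 500 bp upstream to 100 bp downstream gave 2 genes, and 2000 bp upstream to 200 bp downstream gave 3. Of the 38 genes on the lists of contractile relatives and of other pharyngeal muscle genes, 24 had an IDR summit in reach. This count became 15 with the 2192 strongest IDR peaks, 21 at 2000 bp and 22 to 24 with 1 replicate. The number of summits among the 4384 strongest regions of both replicates stayed at 3 under 3 other overlap rules, the median ratio at 1.71 with the strongest summit within 200 bp, and the T-box word count at 0 within 50 bp and 100 bp. No paired analysis was possible because there was 1 group. Depth is unknown, so no limit of detection could be given.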

Other observations

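Over 301 bp around the 5 IDR summits in reach, the GC content was 52.2% at ceh-22, 48.2% at myo-2, 44.5% at myo-1, 40.9% at myo-5 and 40.2% at the nbet-1 summit near tni-4. The median of all IDR windows was 40.5% (quartiles 35.9% to 45.5%), so ceh-22 and myo-2 lay above the upper quartile and the other 3 between the quartiles. Around the weaker promoter regions the GC content was 48.5% at tnt-4, 46.2% at tnc-2, 45.8% at tni-4 and 37.2% at myo-5. The part of base composition in the scores was not tested. The strongest regions of ceh-22 and myo-2 each overlapped an exon of an annotated non-coding RNA gene, as did the replicate 1 region upstream of myo-5.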
